A study of Mus musculus with 10 samples.

Results

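The genes described here encode the oligoadenylate synthetase family and the kinase PKR in immortalized mouse macrophages. The 6 members (Oasl1, Oasl2, Oas1a, Oas2, Oas3 and Eif2ak2, the gene of PKR) were taken by name from the 19938 genes measured on the arrays. Each was read from the probe set that carried its symbol alone and had the highest mean over the 10 arrays.

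The 4 groups compared were, by their labels, TLR9KO macrophages given β-1,3 glucan beads at 20 beads per cell for 4 h (2 arrays), unstimulated TLR9KO macrophages (2 arrays), wild-type B6 macrophages given the same beads (3 arrays) and unstimulated wild-type B6 macrophages (3 arrays). TLR9 is an endosomal receptor for unmethylated CpG DNA, and β-1,3 glucan is a fungal cell wall sugar that macrophages bind through Dectin-1. All groups were immortalized lines, and each genotype was 1 named line, so line and genotype cannot be told apart. Whether replicate arrays were separate cultures is not stated in the labels, and p-values cover only the spread from array to array.

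Oligoadenylate synthetases bind double-stranded RNA, a sign of viral infection, and then join ATP into short oligoadenylates, a second messenger of the antiviral response. PKR binds the same kind of RNA and phosphorylates the translation factor eIF2, which stops most protein synthesis. The genes of both arms are textbook interferon-stimulated genes: interferon activates the ISGF3 complex, which holds STAT2 and IRF9 and binds interferon-stimulated response elements (ISREs) in their promoters.

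The promoters of the members are shown because the genes differed in how far they moved and in the ISRE letters near their starts. Any relation between these was not tested. The letters GAAANNGAAA, an ISRE core, were searched on both strands from 250 bases before to 50 bases after each annotated start in RefSeq (GRCm38.p6). They occurred in 3.44% of 32851 such windows. The windows of 5 of the 6 members were available, that of Oas2 being absent, so Oas2 has no part in the motif descriptions. For 4 members 280 bases each are printed, read along the gene's strand, with every ISRE core in capitals. Oas1a (chr5:120907496-120907775, minus strand), Oas3 (chr5:120777630-120777909, minus strand) and Eif2ak2 (chr17:78882543-78882822, minus strand) held the core, and Oasl2 (chr5:114896684-114896963, plus strand) did not.
Oas1a: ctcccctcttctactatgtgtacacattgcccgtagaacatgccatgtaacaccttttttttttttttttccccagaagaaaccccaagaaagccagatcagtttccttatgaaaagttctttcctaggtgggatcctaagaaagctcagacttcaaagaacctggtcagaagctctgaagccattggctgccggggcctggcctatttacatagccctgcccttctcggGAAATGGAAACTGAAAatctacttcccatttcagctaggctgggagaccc
Oas3: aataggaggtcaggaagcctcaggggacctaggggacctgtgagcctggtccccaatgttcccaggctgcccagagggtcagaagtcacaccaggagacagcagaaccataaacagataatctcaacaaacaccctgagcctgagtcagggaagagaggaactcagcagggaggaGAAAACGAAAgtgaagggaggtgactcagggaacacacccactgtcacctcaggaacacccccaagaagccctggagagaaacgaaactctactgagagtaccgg
Eif2ak2: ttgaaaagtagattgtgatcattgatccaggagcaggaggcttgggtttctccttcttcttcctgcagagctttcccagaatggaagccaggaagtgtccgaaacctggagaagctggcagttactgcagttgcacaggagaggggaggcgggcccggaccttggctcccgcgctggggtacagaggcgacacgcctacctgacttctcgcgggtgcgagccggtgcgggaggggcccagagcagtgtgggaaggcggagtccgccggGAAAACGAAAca
Oasl2: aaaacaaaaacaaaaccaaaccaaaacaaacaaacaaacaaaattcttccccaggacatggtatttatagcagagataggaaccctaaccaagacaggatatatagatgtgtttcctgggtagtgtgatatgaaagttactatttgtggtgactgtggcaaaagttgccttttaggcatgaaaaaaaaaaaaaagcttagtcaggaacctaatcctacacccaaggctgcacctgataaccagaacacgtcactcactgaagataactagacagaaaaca
Oas1a had 2 overlapping cores at positions -20 and -14, counted to the left end of the match from the annotated start. Oas3 had 1 at position -75 and Eif2ak2 had 1 at position 19, inside the transcribed part. Neither Oasl1 nor Oasl2 had one. The shorter IRF element AANNGAAA, which every ISRE core contains, occurred in 23.9% of the windows. Oasl1 held 3 of these, at positions -177, -155 and -133, and Oasl2 held none. A match describes letters, not a bound site, and a missing match covers only this window.

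**Figure D1:**
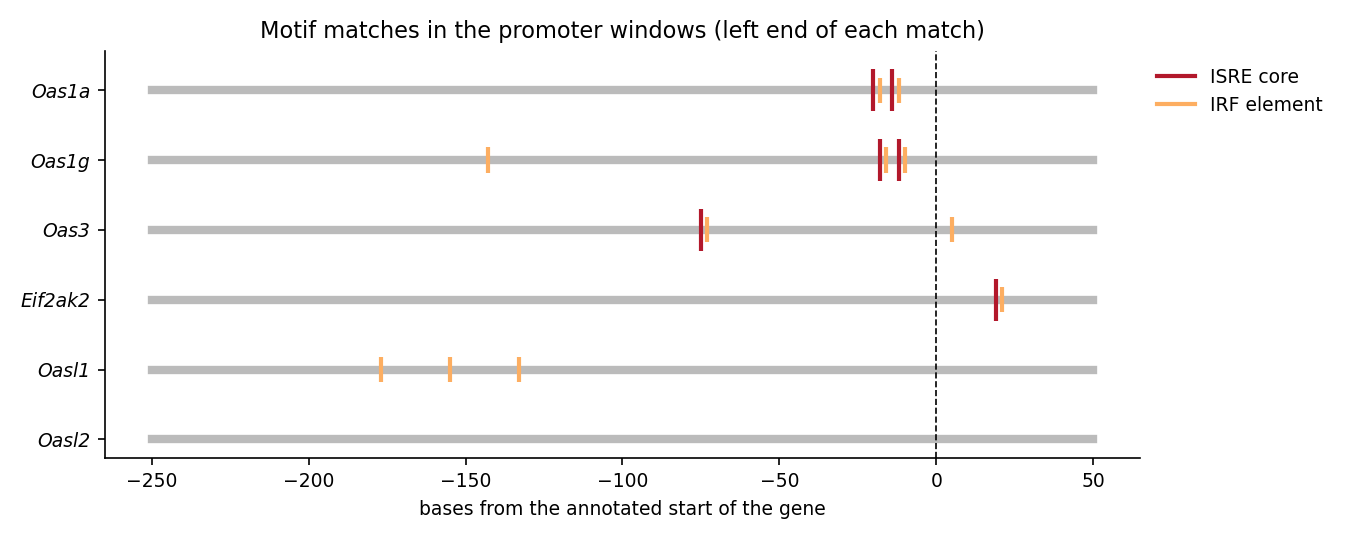
Each grey bar is 1 promoter window, with distance from the annotated start of the gene on the x axis in bases, and ticks mark the left end of each ISRE core (tall, red) and IRF element (short, orange). Oas1a and its neighbour Oas1g carry 2 cores each just before the start, Oas3 and Eif2ak2 carry 1 each, and Oasl2 carries no match.

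Before the results, the arrays were checked against their labels. All 8 macrophage markers were measured, and Cd68, Lyz2 and Csf1r had log2 signals of 11.2 or more on every array, while medians over all probe sets ran from 5.75 to 6.10. The mean over the 8 markers was 10.51 to 10.66 in TLR9KO bead arrays, 10.66 to 10.74 in unstimulated TLR9KO arrays, 9.85 to 10.35 in wild-type bead arrays and 10.12 to 10.21 in unstimulated wild-type arrays. In both comparisons of the lines 4 macrophage markers were higher in TLR9KO (Adgre1, Cd14, Csf1r and Fcgr1) and 1 was lower (Mertk). Of all genes, 3.82% were called higher and 3.4% lower with beads, and 3.79% higher and 4.46% lower unstimulated. Mertk had log2 signals of 6.04 to 6.38 on TLR9KO arrays, against 7.55 to 8.29 on wild-type arrays. Cd14 had 10.31 to 10.64 on TLR9KO arrays, against 7.71 to 8.25 on wild-type arrays. The part of these marker differences in the results was not tested. None of the 22 measured markers of dendritic cells, granulocytes, T cells, B cells and fibroblasts passed in either, and 0 had an unadjusted p under 0.05. Tlr9 signal was 7.35 and 7.31 in TLR9KO bead arrays and 7.44 and 7.62 in unstimulated TLR9KO arrays, against 7.03, 7.21 and 7.44 in wild-type bead arrays and 7.32, 6.91 and 7.25 in unstimulated wild-type arrays. It was not lower in the arrays labelled TLR9KO. The position of its probes relative to the deletion is unknown, so Tlr9 does not check the labels, and TLR9KO below means the arrays so labelled. Wild-type bead array 3 stood apart, with a mean correlation of 0.973 with its own group against 0.985 to 0.997 for the other arrays.

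The comparison of the lines asked which genes differ between TLR9KO and wild-type macrophages, with beads and without. Of the 6 genes, 5 were higher in TLR9KO macrophages both ways, by 2.27-fold to 17.3-fold with beads and by 2.61-fold to 26.8-fold unstimulated. By size of the difference in signal the order was Oasl2, Oas2, Oas3, Oasl1 and Oas1a. The deposited values carry no detection call. Wild-type signals of Oasl2, Oas2 and Oas3 (6.20 to 6.81) lay near those of some markers of other cell types, such as Cd3e (5.68 to 6.63) and Col1a1 (6.34 to 7.19). Most of these markers read lower, such as Clec9a (4.07 to 4.37) and Siglech (4.92 to 5.35), and Tcf4 read higher (7.77 to 8.54). Without a detection call, whether Oasl2, Oas2 and Oas3 were above background in wild type is unknown. Their folds are ratios of signals that may understate the change in RNA, and the order among them is that of the signals. PKR (Eif2ak2) lay higher on every TLR9KO array of a comparison too but did not pass the test. The arrays of the lines did not overlap for any of the 6; among all genes, 11.3% lay higher in TLR9KO without overlap with beads and 17.7% unstimulated. Of all genes tested, 3.82% were called higher in TLR9KO with beads and 3.79% unstimulated, at a Benjamini-Hochberg adjusted p under 0.05 in limma. The median difference of the 6 genes was 1.80 on the log2 scale with beads and 2.15 unstimulated, beside -0.0115 and 0.0171 over all genes. In bulk RNA, fewer cells that express a gene and less RNA per cell cannot be told apart.

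Oas2 and Oas3 are the larger synthetases, built from repeated synthetase units. Oas2 had log2 signals of 9.34 and 9.51 in TLR9KO bead arrays, against 6.42, 6.20 and 6.75 in wild-type bead arrays. Its signals were 9.65 and 9.73 in unstimulated TLR9KO arrays, against 6.29, 6.39 and 6.25 in unstimulated wild-type arrays. All TLR9KO arrays lay far above all wild-type arrays, without overlap. The difference was 2.97 ± 0.15 (SE) with beads, or 7.85-fold (adjusted p = 5.21e-06), and 3.38 ± 0.15 unstimulated, or 10.4-fold (adjusted p = 2.13e-06). It ranked 20 of 19938 genes from the highest with beads and 13 unstimulated.

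Oas3 had log2 signals of 8.86 and 9.14 in TLR9KO bead arrays, against 6.81, 6.76 and 6.56 in wild-type bead arrays. In unstimulated arrays it had 9.17 and 9.38 in TLR9KO, against 6.71, 6.29 and 6.63 in wild type. The lines did not overlap, and the lowest TLR9KO array was a bead array. The difference was 2.29 ± 0.15 with beads, or 4.88-fold (adjusted p = 2.53e-05), and 2.73 ± 0.15 unstimulated, or 6.64-fold (adjusted p = 8.80e-06).

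Oas1a is a small single-unit synthetase whose promoter holds the 2 overlapping ISRE cores printed above. It had 8.98 and 8.96 in TLR9KO bead arrays, against 7.65, 7.98 and 7.73 in wild-type bead arrays. Unstimulated arrays had 8.85 and 9.07 in TLR9KO, against 7.38, 7.72 and 7.63 in wild type. The lines did not overlap. Its difference was 1.18 ± 0.14 with beads, or 2.27-fold (adjusted p = 0.000694), and 1.38 ± 0.14 unstimulated, or 2.61-fold (adjusted p = 0.000274). A second probe set, annotated to Oas1a and Oas1g together and left out of the fit, read 9.57 and 9.84 in TLR9KO bead arrays, against 8.51, 8.40 and 8.36 in wild-type bead arrays. It read 9.91 and 9.91 in unstimulated TLR9KO arrays, against 8.34, 8.40 and 8.28 in unstimulated wild-type arrays. The difference on that shared probe set was 1.28 with beads and 1.57 unstimulated, the same direction as on the probe set of Oas1a alone. Its bead difference in TLR9KO was -0.21, against 0.01 on the probe set of Oas1a alone.

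The OAS-like proteins carry ubiquitin-like domains behind the synthetase part. Oasl2 keeps synthetase activity in the mouse, whereas mouse Oasl1 has none and is known to hold back translation of Irf7, the interferon regulatory factor. Oasl2 had 10.64 and 10.65 in TLR9KO bead arrays, against 6.43, 6.61 and 6.56 in wild-type bead arrays. Unstimulated arrays had 11.18 and 11.13 in TLR9KO, against 6.35, 6.31 and 6.58 in wild type. The gap between the lines was many times the spread within any group, whose SD was at most 0.145. The difference was 4.11 ± 0.11 with beads, or 17.3-fold (adjusted p = 1.22e-07), and 4.75 ± 0.11 unstimulated, or 26.8-fold (adjusted p = 3.26e-08). It ranked 5 from the highest with beads and 3 unstimulated. Of the 5 genes with a window, it was the one without either motif. Oasl1 lacked the ISRE core too, and any relation of the motifs to the differences was not tested.

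Oasl1 had 10.51 and 10.71 in TLR9KO bead arrays, against 9.32, 9.39 and 9.15 in wild-type bead arrays. It had 10.72 and 10.63 in unstimulated TLR9KO arrays, against 9.20, 9.00 and 9.13 in unstimulated wild-type arrays. The lines did not overlap, and the TLR9KO groups overlapped each other. The difference was 1.32 ± 0.11 with beads, or 2.50-fold (adjusted p = 0.000110), and 1.56 ± 0.11 unstimulated, or 2.95-fold (adjusted p = 3.57e-05). For Oasl1, Oasl2, Oas1a, Oas2 and Oas3 the call held under all 19 alternatives in both comparisons, with a highest adjusted p of 0.0179 with beads and 0.00655 unstimulated, both for Oas1a.

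**Figure D2:**
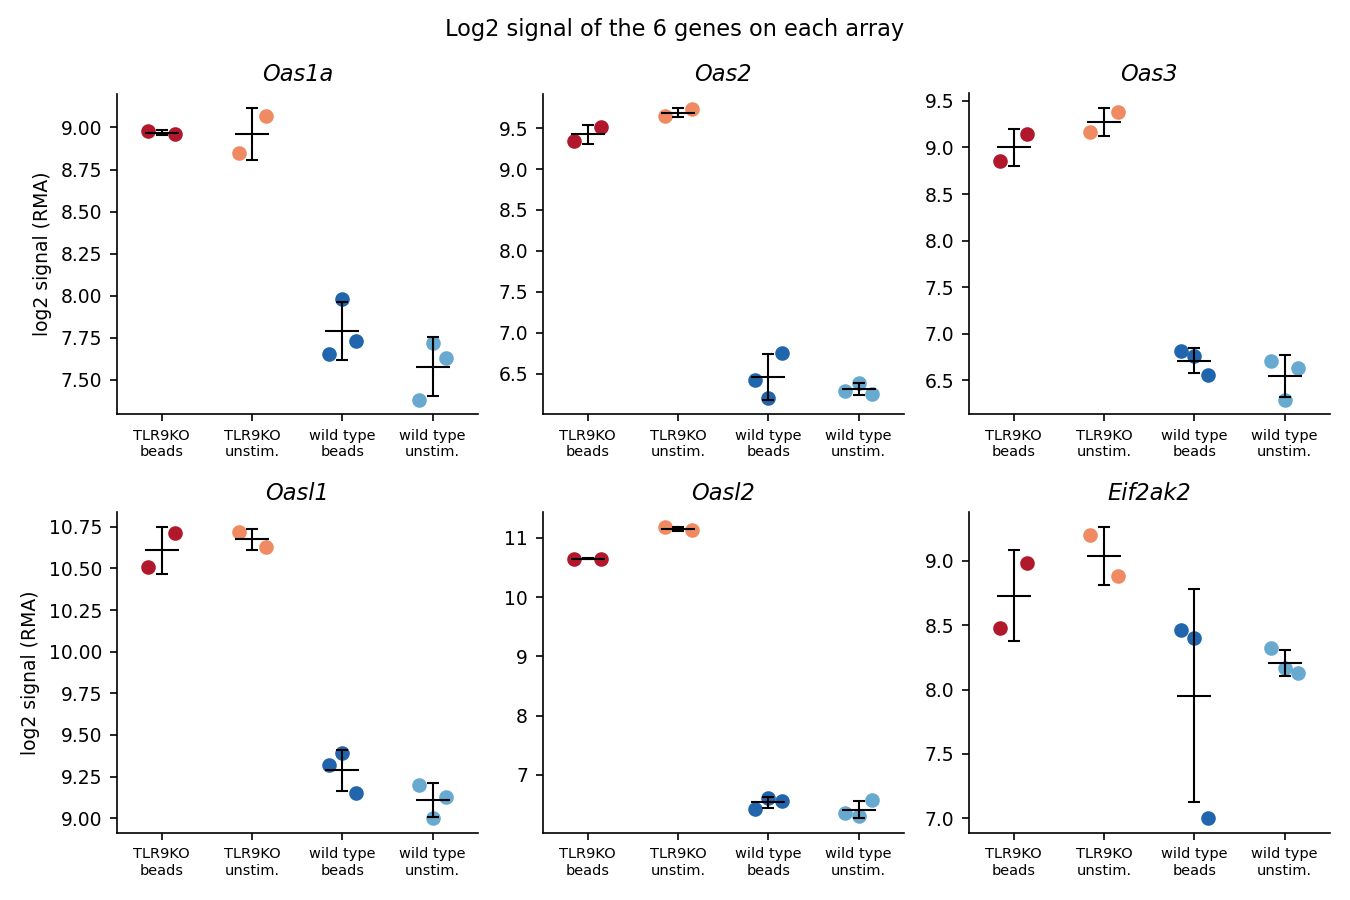
Points are arrays, with log2 signal on the y axis and the 4 groups on the x axis, and bars give the mean and SD of a group (n = 2 for TLR9KO groups, n = 3 for wild-type groups); the y axes differ and do not start at 0. All TLR9KO arrays lie above all wild-type arrays for each gene, with the narrowest gap for Eif2ak2, where wild-type bead array 3 lies at 7.00.

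Eif2ak2 encodes PKR, the double-stranded RNA kinase that acts on eIF2. It had 8.48 and 8.98 in TLR9KO bead arrays, against 8.46, 8.40 and 7.00 in wild-type bead arrays. Unstimulated arrays had 9.20 and 8.88 in TLR9KO, against 8.32, 8.17 and 8.13 in wild type. With beads the lowest TLR9KO array lay just above the highest wild-type array. The difference was 0.78 ± 0.38 with beads (95% interval -0.09 to 1.64, adjusted p = 0.396) and 0.83 ± 0.38 unstimulated (95% interval -0.04 to 1.70, adjusted p = 0.31). The wide error came with wild-type bead array 3, where Eif2ak2 differed by -1.44 on the log2 scale relative to the mean of arrays 1 and 2. Of all genes, 64 (0.321%) lay as low or lower there, while the other 5 members deviated by -0.23 to 0.44. Without that array the unstimulated difference was still 0.83 and passed (adjusted p = 0.00233), and the difference with beads was 0.30 and did not (adjusted p = 0.211). Without it, 18.4% of all genes were called in either direction unstimulated and 20.9% with beads, beside 8.25% and 7.22% with all arrays.

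The bead comparisons asked which genes respond to glucan beads in each line. No member passed in either line, and no gene of the 19938 did (0% called). In TLR9KO macrophages 5 of the 6 genes lay lower with beads, as did 48.2% of all genes. Oasl2 had 10.64 and 10.65 with beads, against 11.18 and 11.13 unstimulated, and the groups did not overlap. Its difference was -0.51 ± 0.12 (95% interval -0.78 to -0.25), with an unadjusted p of 0.00179 and an adjusted p of 0.849 in limma. The adjusted p ranged from 0.186, without wild-type bead array 3, to 1.0 over the alternatives. Of all genes, 0.682% lay lower in TLR9KO with beads at an unadjusted p under 0.05. Oas3 and Oas2 did not overlap between the TLR9KO groups either, with differences of -0.28 ± 0.17 and -0.26 ± 0.16, and 11.2% of all genes lay lower without overlap there. Oasl1, Oas1a and Eif2ak2 overlapped, at -0.07 ± 0.12, 0.01 ± 0.15 and -0.31 ± 0.42.

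In wild-type macrophages all 6 genes overlapped between bead and unstimulated arrays, and 5 of the 6 lay higher with beads, as did 56.3% of all genes. Differences were 0.21 ± 0.12 for Oas1a, 0.18 ± 0.10 for Oasl1, 0.17 ± 0.14 for Oas3, 0.14 ± 0.13 for Oas2 and 0.12 ± 0.10 for Oasl2, each with an adjusted p of 1.0. Eif2ak2 was at -0.25 ± 0.34, and at 0.22 without wild-type bead array 3 (adjusted p = 0.534). None of the 6 had an unadjusted p under 0.05 here, where 0.567% of all genes lay higher at that threshold and 0.271% lower.

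The TLR9KO bead response minus the wild-type bead response lay below 0 for all 6 genes, as it did for 52.4% of all genes. This difference shares its arrays with the other comparisons. For Oasl2 it was -0.63 ± 0.15 (95% interval -0.98 to -0.29), with an unadjusted p of 0.00233 and an adjusted p of 1.0. It was -0.45 ± 0.22 for Oas3 and -0.41 ± 0.21 for Oas2. Oasl1, Oas1a and Eif2ak2 had -0.24 ± 0.16, -0.20 ± 0.19 and -0.05 ± 0.54. No gene passed after adjustment (0% called), and 0.411% of all genes lay below 0 at an unadjusted p under 0.05.

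**Figure D3:**
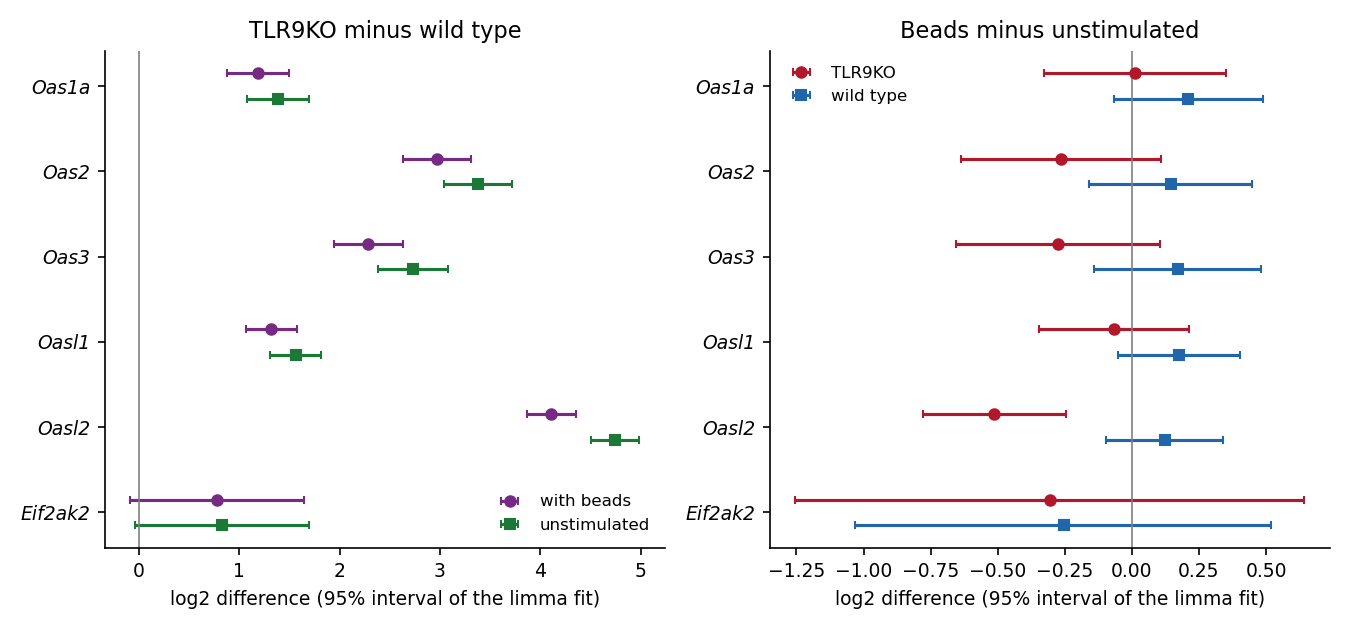
Points are log2 differences with 95% intervals of the limma fit for the 6 genes; the left panel sets TLR9KO against wild type (circles with beads, squares unstimulated), the right panel beads against unstimulated (circles TLR9KO, squares wild type). Intervals for the lines exclude 0 except for Eif2ak2, and in the bead panel that of Oasl2 in TLR9KO alone excludes 0.

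Oasl1, Oasl2, Oas2 and Oas3 had one order of group means, highest in unstimulated TLR9KO, then TLR9KO with beads, then wild type with beads, then unstimulated wild type. Within that order the wild-type neighbours overlapped for all 4 genes, and the TLR9KO neighbours for Oasl1 alone. Oas1a had its highest mean in TLR9KO with beads (8.97 ± 0.01, against 8.96 ± 0.15 unstimulated, SD, n = 2 each), and these groups overlapped. On the probe set shared with Oas1g the order was the other way, with 9.57 and 9.84 in TLR9KO bead arrays, against 9.91 and 9.91 in unstimulated TLR9KO arrays. Eif2ak2 ran from unstimulated TLR9KO (9.04 ± 0.22, n = 2) and TLR9KO with beads (8.73 ± 0.35, n = 2) to unstimulated wild type (8.21 ± 0.10, n = 3) and wild type with beads (7.95 ± 0.83, n = 3).

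The remaining mouse OAS genes had smaller differences, on signals that were low in all groups (3.84 to 5.89 over the 10 arrays), where a gene below background would show none. Oas1b, Oas1c, Oas1d, Oas1e, Oas1f and Oas1h were measured on probe sets of their own, and Oas1g only on the shared one. Oas1b alone was higher in TLR9KO, by 0.62 ± 0.12 with beads (adjusted p = 0.0141) and 0.52 ± 0.12 unstimulated (adjusted p = 0.0309). Oas1b is a flavivirus resistance gene that RefSeq lists as a transcribed pseudogene in the mouse reference. Its call was kept in 13 of 18 alternatives with beads and in 10 of 18 unstimulated. It was lost with beads without either TLR9KO bead array or wild-type bead array 2 (0.55 to 0.67, adjusted p 0.0531 to 0.140). It was lost unstimulated without any 1 TLR9KO array or any 1 unstimulated wild-type array (0.47 to 0.55, adjusted p 0.0544 to 0.221). The median over the 6 was 0.00813 with beads and 0.0174 unstimulated. Oas1a and Oas1b are close relatives, and the probe sequences were not used here, so cross-hybridisation between them was not tested.

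These genes stand side by side. By gene order in GRCm38.p6, Oas2, Oas3, Oas1e, Oas1c, Oas1b, Oas1f, Oas1h, Oas1g, Oas1a and Oas1d follow each other on chromosome 5, and Oasl2 and Oasl1 are neighbours elsewhere on it. Eif2ak2 lies on chromosome 17. Of the 18 nearest measured neighbours of these 3 places (3 on each side), none was higher in TLR9KO in either comparison. With beads 2 were lower, Acads (-0.66 ± 0.15, adjusted p = 0.0232) and Ptpn11 (-0.47 ± 0.12, adjusted p = 0.0485). Unstimulated 2 were lower, Ptpn11 (-0.61 ± 0.12, adjusted p = 0.0138) and Ddx54 (-0.41 ± 0.10, adjusted p = 0.0306). Among all genes, 3.82% were called higher and 3.4% lower with beads, and 3.79% higher and 4.46% lower unstimulated. At such shares few of 18 genes would be called, so these counts say little about the 3 places. Neighbours ranged from -0.66 to 0.43 with beads and from -0.61 to 0.52 unstimulated. Along the OAS cluster Oas2 and Oas3 stood at one end and Oas1a near the other, and the measured genes between them had differences of -0.16 to 0.62 with beads.

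**Figure D4:**
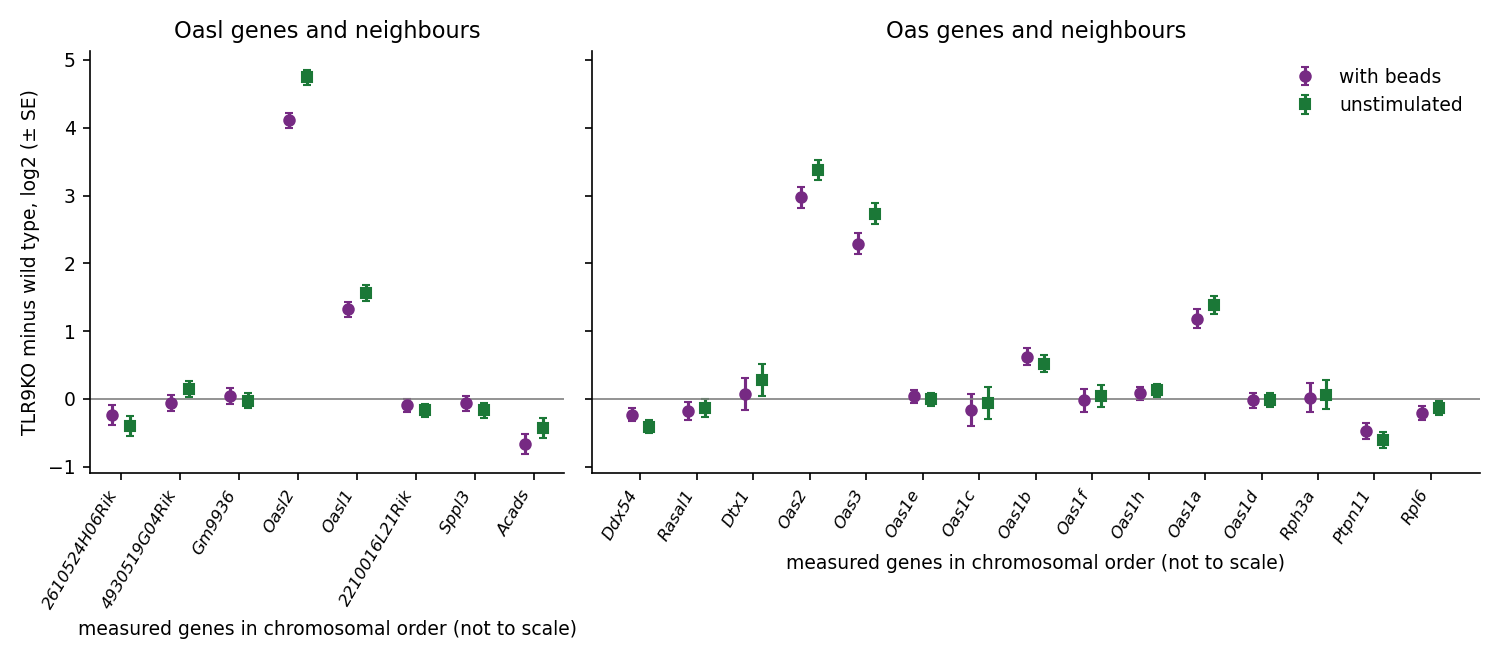
Points are log2 differences of TLR9KO minus wild type with the SE of the fit (circles with beads, squares unstimulated), for measured genes in chromosomal order, not to scale. Oas2, Oas3 and Oas1a lie well above the OAS genes around them, and Oasl2 and Oasl1 above their neighbours.

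Around PKR, 7 relatives and regulators were measured. Adar, the interferon-induced enzyme that edits double-stranded RNA and so keeps PKR from seeing it, was higher in TLR9KO by 1.18 ± 0.10 with beads (adjusted p = 0.000114) and 1.37 ± 0.10 unstimulated (adjusted p = 4.12e-05). Dnajc3, a chaperone known as an inhibitor of PKR, was lower unstimulated (-0.80 ± 0.15, adjusted p = 0.0118) and was at -0.42 ± 0.15 with beads (adjusted p = 0.184). Without wild-type bead array 3 the Dnajc3 difference with beads was -0.60 and passed (adjusted p = 0.000649). Without TLR9KO unstimulated array 1 or 2 its unstimulated difference was -0.82 or -0.78 and did not pass (adjusted p = 0.0862 and 0.105). The other eIF2 kinases (Eif2ak1, Eif2ak3 and Eif2ak4) and the PKR regulators Prkra and Tarbp2 did not pass. Without wild-type bead array 3, Eif2ak1 was called lower in both, at -0.63 with beads (adjusted p = 0.00253) and -0.48 unstimulated (adjusted p = 0.00659). The median of the 7 was -0.00828 with beads and -0.0454 unstimulated.

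PKR's substrate eIF2, its exchange factor eIF2B and the eIF2 phosphatase were measured on 10 of 11 genes. None was called with beads, where 4 had an unadjusted p under 0.05, and 2 were lower unstimulated: Eif2b1, an eIF2B subunit (-0.85 ± 0.17, adjusted p = 0.0137), and Eif2s3x, the gamma subunit of eIF2 (-0.49 ± 0.11, adjusted p = 0.0197). With beads these had -0.62 ± 0.17 (adjusted p = 0.0618) and -0.24 ± 0.11 (adjusted p = 0.298). The counts depended on single arrays. Without wild-type bead array 3, 7 genes were lower with beads and 6 unstimulated, and without TLR9KO unstimulated array 1 or 2 none was. In the unstimulated comparison 1 of the 10 was called without any 1 of the 3 unstimulated wild-type arrays. The median of the 10 was -0.252 with beads and -0.388 unstimulated. With all arrays 4.46% of all genes were called lower unstimulated and 3.4% with beads. Without wild-type bead array 3 these shares were 11.3% unstimulated and 13.7% with beads.

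ATF4, a transcription factor made when eIF2 is phosphorylated, and its targets were measured for 8 of 8 genes, and 2 were higher in both comparisons. With all arrays 3.82% of all genes were called higher with beads and 3.79% unstimulated. Ddit3, the stress factor CHOP, was higher by 1.06 ± 0.14 with beads (adjusted p = 0.00149) and 1.02 ± 0.14 unstimulated (adjusted p = 0.00176). Atf3 was higher by 0.62 ± 0.11 with beads (adjusted p = 0.00701) and 0.78 ± 0.11 unstimulated (adjusted p = 0.00177). Without TLR9KO bead array 1 or 2 the Atf3 difference with beads was 0.59 or 0.65 and did not pass (adjusted p = 0.0781 and 0.0601). The amino acid genes Asns and Psat1, and Atf4 itself, did not pass. Without wild-type bead array 3, Ddit3, Atf3, Trib3 and Chac1 were called higher in each comparison, and Psat1 was called lower with beads (-0.41, adjusted p = 0.0334). In that fit 7.19% of all genes were called higher and 13.7% lower with beads, and 7.08% higher and 11.3% lower unstimulated. The median of the 8 was 0.34 with beads and 0.263 unstimulated.

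The type I interferon pathway was measured on 8 genes, and 5 were higher in TLR9KO both ways. Of all genes, 3.82% were called higher with beads and 3.79% unstimulated. Whether these differences come before those of the 6 genes was not tested. Irf7, which drives interferon genes, was higher by 4.91 ± 0.13 with beads (adjusted p = 1.33e-07) and 5.12 ± 0.13 unstimulated (adjusted p = 8.96e-08). The ISGF3 subunit Stat2 was higher by 1.75 ± 0.12 with beads (adjusted p = 3.02e-05) and 2.11 ± 0.12 unstimulated (adjusted p = 8.90e-06). Its partner Irf9 was higher by 1.35 ± 0.12 with beads (adjusted p = 0.000128) and 1.63 ± 0.12 unstimulated (adjusted p = 3.62e-05). These 3 calls held under all 19 alternatives. The receptor chain Ifnar1 (0.67 with beads, 0.92 unstimulated) and the receptor kinase Tyk2 (0.62 and 0.49) passed too. Ifnar2, the other receptor chain, did not pass in limma with all arrays. Without wild-type bead array 3 it was called higher unstimulated (0.51, adjusted p = 0.00472). With beads it was at 0.34 in that fit and did not pass (adjusted p = 0.0525). That fit called 7.08% of all genes higher unstimulated and 7.19% with beads. Ifnar1 kept its call in 16 of 19 alternatives with beads and 17 of 19 unstimulated, and Tyk2 in 16 and 15. The Ifnar1 difference was 0.48 with beads without TLR9KO bead array 2 (adjusted p = 0.241) and 0.85 unstimulated without TLR9KO unstimulated array 1 (adjusted p = 0.0598). Tyk2 lost its call with beads without TLR9KO bead array 2 (0.61, adjusted p = 0.0592). Unstimulated it lost its call without TLR9KO unstimulated array 2 (0.39, adjusted p = 0.173), wild-type unstimulated array 1 (0.50, adjusted p = 0.0523) or wild-type unstimulated array 3 (0.44, adjusted p = 0.0697). Ifnb1, the only interferon gene on the list, had log2 signals of 4.62 to 5.27 over the 10 arrays. Its differences were -0.12 ± 0.18 with beads and -0.07 ± 0.18 unstimulated. On each array only 20.6% to 28.3% of genes read as low or lower, and a gene below background would show no difference. Other interferon genes were not on the list, so these values do not cover them. The median of the 8 was 0.648 with beads and 0.717 unstimulated.

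**Figure D5:**
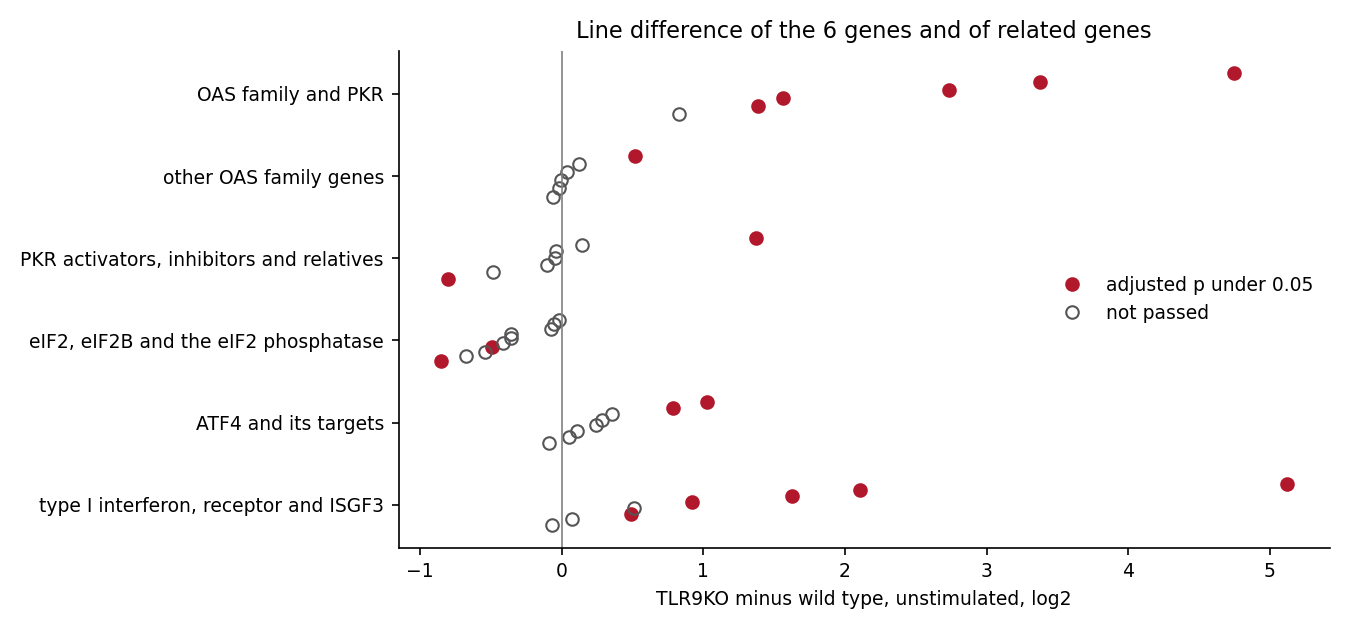
Points are genes, with the log2 difference of TLR9KO minus wild type in unstimulated arrays on the x axis and the lists on the y axis; filled points passed the limma test. The 6 members and Stat2, Irf9 and Irf7 spread to the right. The other OAS family genes run from -0.06 to 0.52. The eIF2 genes run from -0.85 to -0.02, and 2 of the 10 passed.

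None of the 39 genes of these lists passed in limma in either bead comparison, where 1 had an unadjusted p under 0.05 in TLR9KO and 0 in wild type. The genes whose pattern over the 10 arrays was nearest to each member were found by the root mean square distance between log2 values centred on each gene's mean, as a description. Nearest to Oas2 were Emp2 (0.134), Klf6 (0.184) and Rsad2 (0.184), the last an interferon-induced antiviral enzyme. Nearest to Oas3 were Gbp7 (0.145), Slfn2 (0.175) and Parp14 (0.179), and to Oas1a were Irf5 (0.131), Trafd1 (0.133) and Ahnak (0.148). Oasl1 lay nearest to Slc9a7 (0.0787), Tlr2 (0.0836) and Sdc3 (0.0853). Oasl2 had no gene as near, with S100a6 at 0.265, Rtp4 at 0.314 and Slc43a3 at 0.331. Eif2ak2 lay nearest to Prxl2a (0.114), Apobec3 (0.13) and Casp1 (0.133). In the comparisons of the lines none of these passed, and their SEs were 0.40, 0.32 and 0.36, beside 0.38 for Eif2ak2. The part of wild-type bead array 3 in this nearness was not tested. Among the members, Oasl1 and Oas1a were nearest to each other (0.18), then Oas2 and Oas3 (0.395), and Oasl2 and Eif2ak2 were farthest apart (1.83).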

How the data were processed

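The authors' deposited table holds log2 signals per probe set from 10 Affymetrix arrays, which per the submitters' processing notes come from RMA. This method corrects background, equalises probe distributions and summarises probes. Not given in the sources used here are its version, the annotation build and whether all arrays were normalised together. Values were taken as deposited. Of 28853 probe sets, 21789 carried 1 gene symbol, 1621 several and 5443 none. Symbols were updated by Entrez ID for 21698. This left 19938 genes, each at its probe set with the highest mean, with no filter on signal.

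A model of 4 group means was fitted with limma 3.58.1 in R 4.3.3 (lmFit, eBayes, 6 residual and 3.23 prior degrees of freedom). Tests of the 5 contrasts were two-sided, with Benjamini-Hochberg adjustment over all genes. The code was tested on simulated data. The number of arrays limits the precision.

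The members and lists were chosen with earlier results of these data known. All members were named in every contrast, other pathway genes where they passed or, in a list without such a gene, where they differed most, and the 3 nearest genes of each member. Some further genes that did not pass are named as well, and others are not. Eif2s1 was not analysed here, and some related items are not reported here. Alternatives were eBayes with a trend or robust, arrays centred on the median or 75th percentile, quantile normalisation, a low-signal filter, the compared groups alone, array weights, averaging probe sets, and leaving out each array.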

Additional observations from a re-analysis of the deposited data

How the results depend on the processing

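Across 564 values of the 6 genes under the alternatives, 547 kept direction and side of the threshold, 12 changed sign and 5 passed newly with the same sign. Of the 12, Eif2ak2 in the wild-type bead comparison passed too, with array weights. Between 5 and 6 members were called unstimulated and 5 with beads in the line comparisons, and none in the TLR9KO bead comparison or the difference of bead responses. In the wild-type bead comparison 3 were called with array weights and 0 under the other alternatives. The 3 were Oasl1 (0.25), Oas1a (0.37) and Eif2ak2 (0.23, adjusted p = 0.0399). The weight estimation stopped before reaching its tolerance, gave wild-type bead array 3 a weight of 0.0701 and wild-type bead array 2 a weight of 12.1, and called 9174 of all genes there, against 0 otherwise. Eif2ak2 also passed unstimulated with the compared groups alone (adjusted p = 0.00226), with array weights (adjusted p = 0.000817) and without wild-type bead array 3. Those fits called 16.4%, 22.3% and 18.4% of all genes in either direction, beside 8.25% in the fit reported above.

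The changes of sign were all in bead comparisons. In TLR9KO, Oas1a was at -0.0146 with 75th percentile centring, -0.0157 with quantile normalisation and -0.0953 without TLR9KO unstimulated array 1, and Oasl1 at 0.0333 without TLR9KO bead array 1. Leaving out 1 array at a time gave -0.0953 to 0.117 for Oas1a and -0.167 to 0.0333 for Oasl1. In wild type, Oas2 was at -0.0483 with array weights and -0.00349 without bead array 3, and Eif2ak2 at 0.23 and 0.22, with ranges of -0.00349 to 0.27 and -0.51 to 0.22 when 1 array was left out. The difference of responses of Eif2ak2 was 0.20 without TLR9KO bead array 1, 0.11 without TLR9KO unstimulated array 1, 0.20 without wild-type bead array 1 and 0.17 without wild-type bead array 2, in a range of -0.53 to 0.20. The cause was not tested.

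The count of all genes called was 1439 with beads (480 to 6083 over the alternatives) and 1645 unstimulated (681 to 4451). The compared groups alone were not run for the difference of responses. No paired analysis was possible because no replicate numbers shared by groups are labelled.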
